A study of Mus musculus with 2 samples.

Results

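Genes of the S100 and annexin families were examined in sorted microglia, as a set of 10 genes among the 53801 genes listed in each deposited table. They were S100a8 and S100a9, 5 further S100 genes (S100a1, S100a4, S100a6, S100a10 and S100a11) and 3 annexins (Anxa1, Anxa2 and Anxa5). The genes were chosen by family and by their CPM in these same libraries, and S100a8 and S100a9 were set beside the members of both families that are not named as neutrophil genes. All values of the 10 genes are therefore given as a description, without a test.

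The study concerned the responses of microglia and macrophages to ischemic stroke in mice, and included RNA-seq of sorted microglia. Both libraries analysed here came from sham-operated mice, 1 mouse brain for each library, and form 1 group of 2 biological replicates (sham replicate 1 and sham replicate 2). Stroke libraries were not analysed here, so no effect of stroke was measured. The mice were male Cx3cr1CreER/wt animals on a C57BL/6 background, labelled as 8 to 10 weeks old, in which 1 Cx3cr1 allele carries a tamoxifen-inducible Cre recombinase and 1 allele is intact. Both received tamoxifen at 75 mg/kg daily for 4 days, sham surgery 14 days after the first dose, and no other treatment according to the labels. Microglia were isolated 3 days after surgery from the left, ipsilesional hemisphere with the gate CD11c–Ly6G–CD11b+CD45low, so that cells carrying the granulocyte antigen Ly6G should be left out. The study's methods give an older age range and both sexes.

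S100 proteins are small calcium sensors with a pair of EF-hand motifs, and most act as dimers. S100A8 and S100A9 form calprotectin, which is packed into the cytosol of neutrophils and of a part of the monocytes, binds zinc and manganese, and signals through the receptor TLR4 once released. Annexins bind acidic membrane phospholipids when calcium rises. S100A10 and S100A11 are partners of annexins, S100A10 of annexin A2 and S100A11 of annexin A1, while annexin A1 also dampens neutrophil entry through formyl peptide receptors. Most S100 genes of the mouse lie in 1 cluster on chromosome 3.

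Promoters are shown for the pair, for Anxa1, which differed most between the libraries, and for S100a1, a gene of the same cluster that differed little. Each run is the 250 bases before the RefSeq transcript start in GRCm38.p6, read 5′ to 3′ on the gene's own strand. The S100a8 run lies at chr3:90668821-90669070 on the plus strand, the S100a9 run at chr3:90695722-90695971 on the minus strand, the Anxa1 run at chr19:20390672-20390921 on the minus strand and the S100a1 run at chr3:90514331-90514580 on the minus strand. RefSeq starts differ from the bounds of the counted genes. The Anxa1 run lies wholly inside the counted gene, and the S100a8 and S100a1 runs reach into theirs. The S100a1 run also overlaps the start of S100a13. Capitals mark matches, on either strand, to the TATA box (TATAAA), a C/EBP core (TTNNGNAA), a PU.1 core (GAGGAA), an AP-1 site (TGANTCA) or a GC box (GGGCGG).
S100a8: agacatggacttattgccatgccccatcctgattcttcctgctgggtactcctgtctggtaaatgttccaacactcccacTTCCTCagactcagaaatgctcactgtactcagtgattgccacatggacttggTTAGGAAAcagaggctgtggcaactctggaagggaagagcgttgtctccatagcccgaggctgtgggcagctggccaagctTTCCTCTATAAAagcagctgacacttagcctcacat
S100a9: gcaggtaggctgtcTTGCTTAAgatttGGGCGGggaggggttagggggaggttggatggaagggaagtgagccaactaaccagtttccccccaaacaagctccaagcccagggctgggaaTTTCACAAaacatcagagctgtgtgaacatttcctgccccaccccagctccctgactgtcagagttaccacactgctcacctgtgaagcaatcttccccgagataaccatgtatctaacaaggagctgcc
Anxa1: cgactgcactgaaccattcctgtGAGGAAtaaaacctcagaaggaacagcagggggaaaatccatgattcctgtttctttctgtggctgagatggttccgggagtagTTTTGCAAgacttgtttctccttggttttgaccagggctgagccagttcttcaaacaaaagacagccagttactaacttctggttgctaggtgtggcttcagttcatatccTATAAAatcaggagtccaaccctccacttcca
S100a1: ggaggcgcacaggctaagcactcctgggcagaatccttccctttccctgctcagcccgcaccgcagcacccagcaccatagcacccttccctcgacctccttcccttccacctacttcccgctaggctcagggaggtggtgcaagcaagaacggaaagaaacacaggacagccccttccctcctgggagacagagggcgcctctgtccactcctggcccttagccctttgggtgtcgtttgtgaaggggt

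C/EBP and PU.1 are transcription factors of myeloid cells, and the TATA box places the start of transcription at many strongly induced genes. Letters were searched in the whole RefSeq window of 300 bases, which adds 50 bases after the start, on both strands and allowing overlaps. Of the 10 genes, 9 matched an entry of this table, and S100a10 did not. In the S100a8 run, TATAAA spans bases -30 to -25 from the start and directly follows a PU.1 core, with a further PU.1 core at -170 to -165 and the C/EBP core at -117 to -110. In the S100a9 run, C/EBP cores lie at -236 to -229 and at -130 to -123, and a TATAAA begins at the first base after the printed run. Anxa1 holds TATAAA at -32 to -27, the C/EBP core at -143 to -136 and the PU.1 core at -227 to -222. The C/EBP core was thus found at S100a8, S100a9 and Anxa1, 3 of the 9 genes, and in 40.7% of all 32851 windows of the table. TATAAA was found in 5 of 9 (S100a4, S100a8, S100a9, Anxa1 and Anxa2) and in 13.6% of all windows, and the PU.1 core in 4 of 9 (S100a4, S100a8, S100a11 and Anxa1) and in 28.3%. AP-1 sites were found in 2 of 9 (S100a11 and Anxa2) against 7.81% of all windows, and GC boxes in 3 of 9 (S100a9, S100a11 and Anxa2) against 35.7%. S100a1, S100a6 and Anxa5 held none of these letters in this window, and of these S100a6 was 3.75-fold higher in replicate 2. S100a11 and Anxa2, also over 2-fold higher, held no C/EBP core. A match describes the sequence only. The printed runs were picked by the ratios of their genes. A link between letters and ratios was not tested, and none is read from the printed runs or from the other genes.

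Both tables hold whole-number read counts per gene, 23381026 counts in sham replicate 1 and 41142609 in sham replicate 2, and levels are given as counts scaled to a library total of 1000000 (CPM). Where a gene had 0 counts, a true value of up to 3 counts remains possible, which is 0.128 CPM in replicate 1 and 0.0729 CPM in replicate 2. Intervals in brackets are 95% exact intervals and describe counting error alone, while the difference between mice is seen in the 2 values. The microglial markers were high in both libraries, with 39111 and 44410 CPM summed over 10 genes such as Tmem119 (7057 and 6229 CPM) and P2ry12 (4575 and 7450 CPM), and 1 of the 10 (Sall1) was over 2-fold lower in replicate 2 (log2 -1.20, and 0.03 relative to genes of similar GC content and length). The libraries stood apart in neutrophil genes. All 11 genes of the immature neutrophil list were over 2-fold higher in replicate 2 (1853 and 33977 CPM summed, 18.3-fold). So were 6 of 8 genes of the mature neutrophil list (977 and 4031 CPM summed, 4.12-fold), and no gene of either list was at 0. The list names are labels only, and the stage of the cells was not tested. Csf3r alone, which was not higher in replicate 2, gave 517 and 354 CPM of the mature sums, so their fold depends strongly on this 1 gene. The immature sums rest mostly on Ngp (749 and 16031 CPM) and Ltf (415 and 8260 CPM). Taken per gene, the median log2 ratio was 3.58 in the immature list and 2.06 in the mature list. Ly6g, which encodes the antigen that the gate leaves out, was at 15.4 and 211 CPM. Over the 13445 genes that reached 10 counts in each library (counted genes), 5.74% were over 2-fold higher in replicate 2 and 25.9% over 2-fold lower, and the median log2 ratio of replicate 2 over replicate 1 was -0.26. With DESeq2 size factors these shares were 9.28% and 19.0% and the median was 0.01. Long transcripts were lower in replicate 2, with a median log2 ratio of -1.05 in the tenth of genes with the longest transcripts and of -0.04 in the tenth with the shortest. Each ratio of the 10 genes was therefore also taken relative to genes of similar GC content and length (adjusted ratio).

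All 10 genes were counted genes. In all, 6 of them (S100a8, S100a9, S100a6, S100a11, Anxa1 and Anxa2) were over 2-fold higher in replicate 2, where 5.74% of all counted genes were, none was over 2-fold lower, and 4 differed by less than 2-fold. S100a8, S100a9 and Anxa1 were over 8-fold higher in replicate 2, as were 0.684% of all counted genes, while 1.03% were over 8-fold lower. The same genes passed these limits after the adjustment for GC content and length, under which 9.7% of genes were over 2-fold and 0.848% over 8-fold higher, and 12.7% and 0.342% lower. Together the 10 genes took 0.304% of the counts in replicate 1 and 2.98% in replicate 2. Since these values were known when the genes were picked, nothing further is read from the counts. In bulk RNA of sorted cells, more cells of a type and more RNA per cell cannot be told apart.

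**Figure D1:**
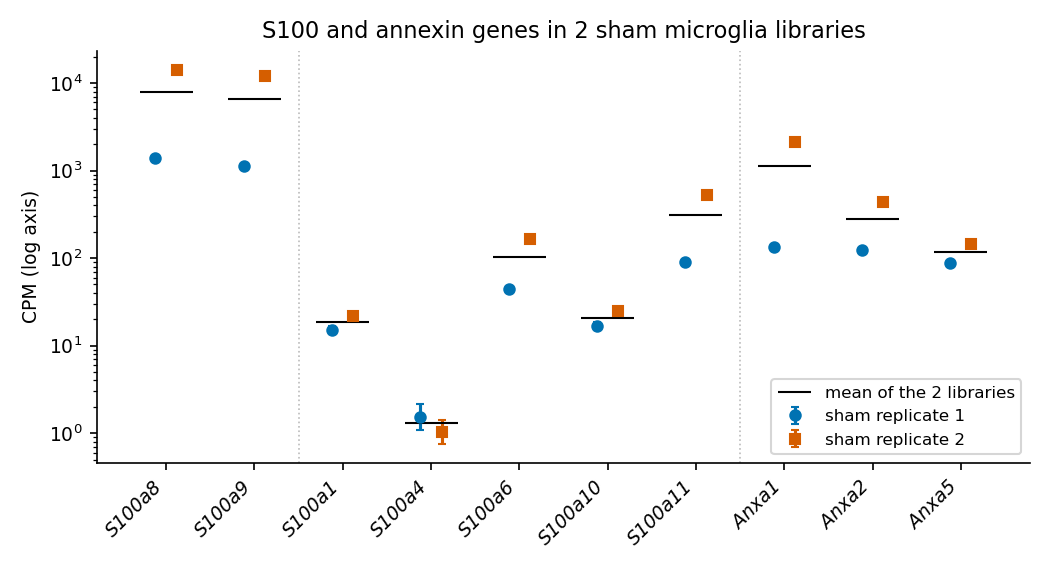
CPM (log axis) of the 10 S100 and annexin genes in sham replicate 1 (circles) and sham replicate 2 (squares), with bars for the mean and error bars for 95% exact counting intervals, most of them smaller than the symbols. S100a8 and S100a9 lie at 1132 CPM or more in both libraries. S100a4 (36 and 43 counts) is the only one of the 10 with a lower CPM in replicate 2, and its 2 intervals overlap.

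S100a8 and S100a9 took most of the members' counts in both libraries and differed between them by nearly the same factor. S100a8 (ENSMUSG00000056054, chromosome 3, 90668978 to 90670035, plus strand of GRCm38, 2 exons in its longest transcript) was at 1396 CPM in replicate 1 and 14266 CPM in replicate 2, from 32640 and 586949 counts. Its mean was 7831 ± 9101 CPM (SD, n = 2), and replicate 2 was 10.2-fold higher (log2 3.35 [3.34, 3.37], adjusted 3.31). S100a9 (ENSMUSG00000056071, chromosome 3, 90692632 to 90695721, minus strand, 3 exons) was at 1132 and 12075 CPM, from 26471 and 496799 counts. The SD of both genes exceeded their mean, and the levels in the 2 mice lay far apart. For S100a9 the mean was 6604 ± 7738 CPM and the difference 10.7-fold (log2 3.41 [3.40, 3.43], adjusted 3.37). By raw count S100a8 ranked 68 and S100a9 87 among all genes in replicate 1, and 3 and 4 in replicate 2. The ratio of S100a8 to S100a9 counts was 1.23 [1.21, 1.25] in replicate 1 and 1.18 [1.18, 1.19] in replicate 2.

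S100a8 was also set against neutrophil genes. Ngp, a protein of secondary granules made by maturing neutrophils, was at 749 and 16031 CPM, and the ratio of S100a8 to Ngp counts was 1.86 in replicate 1 and 0.890 in replicate 2. Camp, the precursor of the antimicrobial peptide CRAMP, gave 7.84 and 4.00, and Ly6g gave 90.7 and 67.8. Against Retnlg, a transcript of mature neutrophils, the ratio was 7.68 [7.44, 7.93] and 7.77 [7.71, 7.82], so S100a8 and Retnlg differed between the libraries by the same factor within counting error. The genes nearest to each member in level were found by the Euclidean distance of log2 CPM over the 2 libraries, a measure that rests on 2 points. S100a9 was the gene nearest to S100a8 (distance 0.39), followed by Ngp (0.91) and Lyz2 (0.95), and the genes nearest to S100a9 were S100a8, Ngp (0.72) and Lyz2 (1.21).

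Summed over the pair, levels were 2528 CPM in replicate 1 and 26341 CPM in replicate 2, a 10.4-fold difference (log2 3.38). The 8 other members summed to 515 and 3415 CPM, 6.63-fold apart (log2 2.73), with a median log2 ratio of 1.25 over the 8. Anxa1 and S100a11 took the most counts of the 8 in replicate 2. The pair made up 83.1% (95% Wilson interval 82.8 to 83.3) of the counts of all 10 genes in replicate 1 and 88.5% (88.5 to 88.6) in replicate 2, and 89.1% of the CPM gap of the 10 genes between the libraries. Anxa1 made up 7.35% of that gap, S100a11 1.63% and Anxa2 1.16%.

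Of the 5 S100 genes other than the pair, 2 were over 2-fold higher in replicate 2 and 3 were not, and their sum was 168 and 740 CPM, 4.40-fold apart. S100a11 (ENSMUSG00000027907, chromosome 3, 93520488 to 93526287, plus strand, 3 exons), a partner of annexin A1 with roles in membrane repair, was at 91.1 and 527 CPM from 2130 and 21692 counts. Its log2 ratio was 2.53 [2.47, 2.60] (5.79-fold, adjusted log2 2.50), above that of the other S100 genes but below the pair. A set of 5 processed pseudogenes shares at least 90% identity with its transcript and was given 40 and 420 counts in all, and how reads shared with them were counted is not known. S100a6 (ENSMUSG00000001025, chromosome 3, 90612882 to 90624181, plus strand, 3 exons), or calcyclin, which is linked to cell proliferation, was at 43.9 and 165 CPM from 1027 and 6774 counts. Replicate 2 was 3.75-fold higher (log2 1.91 [1.81, 2.00], adjusted 1.97). The ratio of S100a8 to S100a6 counts was 31.8 in replicate 1 and 86.6 in replicate 2, and that of S100a8 to S100a11 counts was 15.3 and 27.1, so both genes differed less than the pair.

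S100a10, S100a1 and S100a4 were the 3 S100 genes within 2-fold. S100a10 (ENSMUSG00000041959, chromosome 3, 93555080 to 93564643, plus strand, 3 exons), or p11, which is the light chain of the annexin A2 tetramer and does not bind calcium, was at 16.7 and 25.0 CPM from 390 and 1027 counts. Its log2 ratio was 0.58 [0.41, 0.75]. S100a1 (ENSMUSG00000044080, chromosome 3, 90511034 to 90514392, minus strand, 3 exons), best known as a regulator of calcium release in heart and skeletal muscle, was at 14.97 and 21.9 CPM from 350 and 899 counts, with a log2 ratio of 0.55 [0.37, 0.73]. Both exceeded the median gene by less than 1 on the log2 scale. S100a4 (ENSMUSG00000001020, chromosome 3, 90603771 to 90606045, plus strand, 3 exons), a binding partner of non-muscle myosin IIA that is used as a marker of motile and fibroblast-like cells, had the fewest counts of the 10 genes. It had 36 and 43 counts, or 1.54 [1.08, 2.13] and 1.05 [0.756, 1.41] CPM, and these intervals overlap. Its log2 ratio of -0.56 [-1.23, 0.12] was not distinguishable from 0 at this depth. Of its 584 exon bases, 302 are shared with Gm42674 on the same strand, which had no counts, so reads there may have been left out of the count of S100a4.

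Of the annexins, Anxa1 and Anxa2 were over 2-fold higher in replicate 2 and Anxa5 was not, and their sum was 347 and 2675 CPM, 7.71-fold apart. Anxa1 (ENSMUSG00000024659, chromosome 19, 20373428 to 20390944, minus strand, 13 exons) was at 135 CPM in replicate 1 and 2099 CPM in replicate 2, from 3155 and 86344 counts. Its mean was 1117 ± 1389 CPM (SD, n = 2), and at 15.6-fold (log2 3.96 [3.91, 4.01], adjusted 3.65) the difference was the largest of the 10 genes, above that of S100a8 and S100a9, and remained so after the adjustment. The ratio of S100a8 to Anxa1 counts accordingly was 10.3 in replicate 1 and 6.80 in replicate 2. The genes nearest to Anxa1 were Retnlg (0.47), Mmp8, the neutrophil collagenase (0.68), and Camp (0.86), all 3 from the neutrophil lists. Its log2 ratio of 3.96 lay within the range of the immature neutrophil list (1.97 to 4.42). Before the adjustment it also lay above the range of the mature list (-0.55 to 3.37). After the adjustment it did not, since Anxa1 (3.65) was below Mmp9 (4.18). Mmp9 was the only gene of the mature neutrophil list above Anxa1 on that scale. The part of these cells in the level of Anxa1 was not tested.

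Anxa2 (ENSMUSG00000032231, chromosome 9, 69453620 to 69491795, plus strand, 9 exons), which links membranes to actin and binds plasminogen at the cell surface, was at 124 and 433 CPM from 2899 and 17800 counts, 3.49-fold higher in replicate 2 (log2 1.80 [1.75, 1.86], adjusted 1.81). Its partner S100a10 had a log2 ratio of 0.58, and the ratio of Anxa2 to S100a10 counts was 7.43 [6.69, 8.28] in replicate 1 and 17.3 [16.3, 18.5] in replicate 2, so these 2 genes did not keep 1 ratio. Anxa5 (ENSMUSG00000027712, chromosome 3, 36448923 to 36475894, minus strand, 13 exons), which binds phosphatidylserine and serves as a label of apoptotic cells, was at 88.2 and 144 CPM from 2063 and 5925 counts. Its log2 ratio was 0.71 [0.63, 0.78] and 0.52 after the adjustment. Anxa5 thus stood closest to S100a10 and S100a1 in its ratio.

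**Figure D2:**
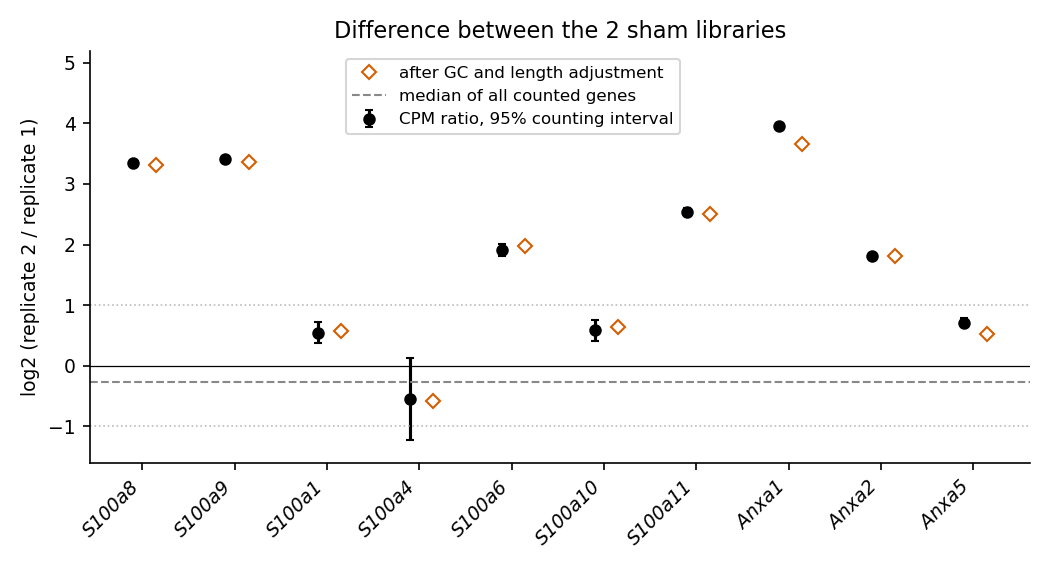
Log2 ratio of replicate 2 over replicate 1 for the 10 genes (filled circles, with 95% exact counting intervals) and the same ratio relative to genes of similar GC content and length (open diamonds). The dashed line is the median of all counted genes at -0.26, and dotted lines mark 2-fold. S100a8, S100a9, S100a6, S100a11, Anxa1 and Anxa2 lie above the upper dotted line on both scales and Anxa1 is highest at 3.96 and 3.65.

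The genes nearest to S100a6 were Ccr1 (0.16), Trem1 (0.26) and Cxcr2 (0.29), of which Cxcr2 is in the mature neutrophil list, those nearest to S100a11 were Hmgn2 (0.42), Anxa2 (0.53) and Cnn2 (0.54), and those nearest to Anxa2 were Cybb (0.28), Prdx5 (0.35) and Gpi1 (0.37). Near S100a10 lay Dnajc4, Tmub1 and Hmces, near S100a1 Iah1, Lin52 and C330018D20Rik, near Anxa5 Rnaset2b, Rcan1 and Tra2b, and near S100a4 Gm4366, Tomt and 1700003F12Rik. Apart from Cxcr2, no gene of the neutrophil lists was among these neighbours of S100a6, S100a11, Anxa2, S100a10, S100a1, Anxa5 and S100a4. With 2 libraries, many genes of middle level lie close to one another on this measure.

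**Figure D3:**
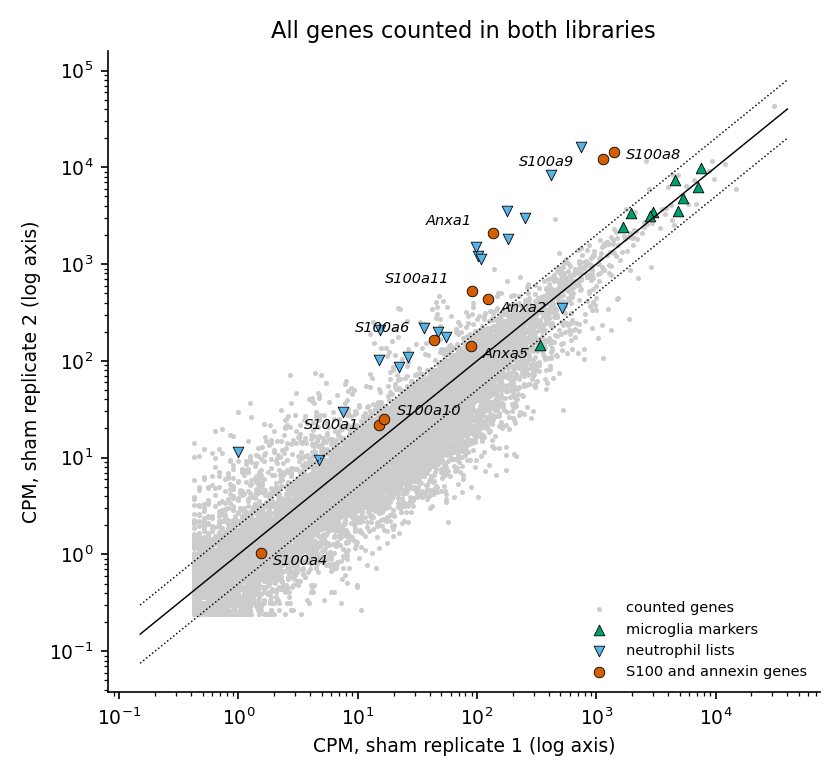
CPM in sham replicate 1 against CPM in sham replicate 2 (both log axes) for all 13445 counted genes (grey), with the 10 S100 and annexin genes (circles), the neutrophil lists (downward triangles) and the microglial list (upward triangles). The solid line marks equal CPM and the dotted lines 2-fold. S100a8, S100a9 and Anxa1 lie among the neutrophil lists, and S100a1, S100a10, S100a4 and Anxa5 lie between the dotted lines.

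Levels of different genes were compared per 1000000 counts and kilobase of exon (RPKM), computed from the deposited counts. S100a9 was at 2169 and 23132 RPKM and S100a8 at 2012 and 20557 RPKM, and their ranges over the 2 libraries overlapped. S100a11 followed at 178 and 1032 RPKM, below both in every library. Anxa1 (46.4 and 721 RPKM), S100a6 (32.1 and 120 RPKM), Anxa2 (33.2 and 116 RPKM) and Anxa5 (49.7 and 81.0 RPKM) came next, and neighbours from S100a11 to Anxa5 were not separated. S100a1 (21.6 and 31.5 RPKM), S100a10 (13.8 and 20.6 RPKM) and S100a4 (2.64 and 1.79 RPKM) were lowest. The range of each of these 3 over the 2 libraries lay wholly below that of its upper neighbour. With the length of the longest transcript, however, S100a10 came above S100a1. Within each library, S100a8 lay below S100a9, S100a11 below S100a8, Anxa1 below S100a11 and S100a6 below Anxa1, although not all of these ranges were separated. In all, 4 of the 9 neighbouring pairs had ranges that did not overlap, and Anxa5 ranked 4 of 10 in replicate 1 and 7 of 10 in replicate 2.

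On chromosome 3, S100a1 and S100a9 bound an interval of 185 kb with 16 annotated genes, 7 of which were counted. S100a13, which lies 42 bases from S100a1, was at 28.9 and 38.5 CPM (log2 0.42), and S100a16 had 13 and 66 counts (log2 1.53). S100a3 and S100a5 had 1 count in each library, S100a14 had none in either and S100a7a had 5 and 9 counts. S100a8 and S100a9, 22.6 kb apart and transcribed toward each other, took the most counts of the interval, followed by S100a6, 101.8 kb from S100a1. S100a11 and S100a10 lie 2825 kb beyond S100a9 in an interval of 44.2 kb, where their log2 ratios were 2.53 and 0.58. Counted S100 genes between S100a1 and S100a9 thus had log2 ratios from -0.56 (S100a4) to 3.41 (S100a9).

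**Figure D4:**
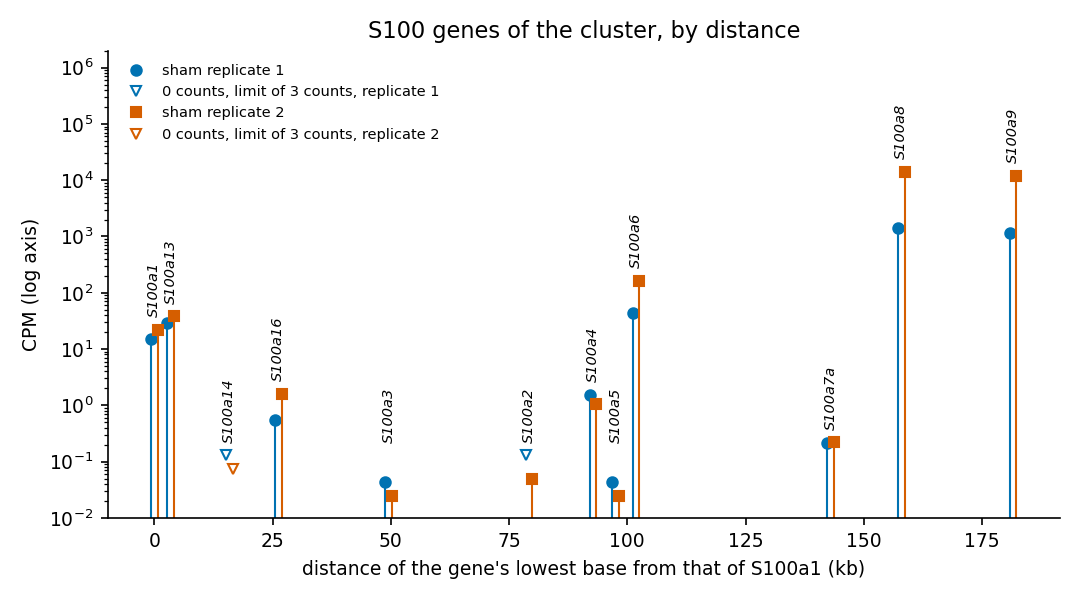
CPM (log axis) of the S100 genes between S100a1 and S100a9 on chromosome 3 in sham replicate 1 (circles) and sham replicate 2 (squares), by distance from S100a1 in kb. Open triangles mark the limit of 3 counts where a library had none. S100a8 and S100a9 stand highest, at the far end, and S100a14, S100a2, S100a3, S100a5 and S100a7a lie below 1 CPM in both libraries.

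Other genes of both families were described from lists. Of 9 other listed S100 genes found, 3 were counted, 1 of them (S100a16) was over 2-fold higher in replicate 2 and none was lower. S100b, an astrocyte product in the brain, had 15 and 43 counts, and S100a2, which the list did not hold, had 0 and 2. Of 9 other annexins, 6 were counted and none was over 2-fold higher. Over 2-fold lower were 2 of the 6, namely Anxa9 (46 and 39 counts, log2 -1.05) and Anxa11 (81 and 46 counts, log2 -1.63). Among all counted genes, 5.74% were over 2-fold higher and 25.9% over 2-fold lower, so no contrast is read from these numbers. Anxa3, a phospholipid-binding annexin of myeloid cells, was at 445 and 765 CPM (log2 0.78), within 2-fold. Anxa6 (104 and 84.8 CPM), Anxa7 (70.1 and 80.9 CPM) and Anxa4 (30.8 and 41.5 CPM) had log2 ratios of -0.29, 0.21 and 0.43. Anxa10 had no counts, Anxa8 had 0 and 9, and Anxa13 had 0 and 1.

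Receptors and partners of these proteins were described from a list of 10 genes, of which 9 were counted. The formyl peptide receptors, through which annexin A1 acts and which guide phagocytes to bacterial and mitochondrial peptides, were both higher in replicate 2. Fpr1 was at 19.3 and 159 CPM (log2 3.04) and Fpr2 at 3.89 and 40.5 CPM (log2 3.38), ratios close to those of S100a8 and S100a9. Tlr4, a receptor of S100A8 and S100A9, was at 119.5 and 89.5 CPM (log2 -0.42), and Bsg, a receptor of S100A9, at 525 and 538 CPM (log2 0.04). Ager, which encodes the receptor RAGE, had 2 and 17 counts and was not counted. Neither Tlr4 nor Bsg differed by 2-fold. Myh9, the heavy chain of the myosin that S100A4 binds, was at 164 and 33.0 CPM (log2 -2.32), the 1 gene of the list over 2-fold lower. Relative to genes of similar GC content and length its log2 ratio was -0.63, within 2-fold. Of all counted genes, 25.9% were over 2-fold lower and 5.74% over 2-fold higher before this adjustment, and 12.7% and 9.7% after it. Ahnak, a giant scaffold bound by annexin A2 with S100A10, was at 17.5 and 9.43 CPM (log2 -0.89, and 0.18 relative to genes of similar GC content and length). Cacybp, which binds S100A6, was at 61.8 and 87.9 CPM (log2 0.51), Cd36, a fatty acid receptor, at 12.2 and 19.0 CPM (log2 0.64), and Pla2g4a, the cytosolic phospholipase that annexins can inhibit, at 116 and 110.5 CPM (log2 -0.07).

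**Figure D5:**
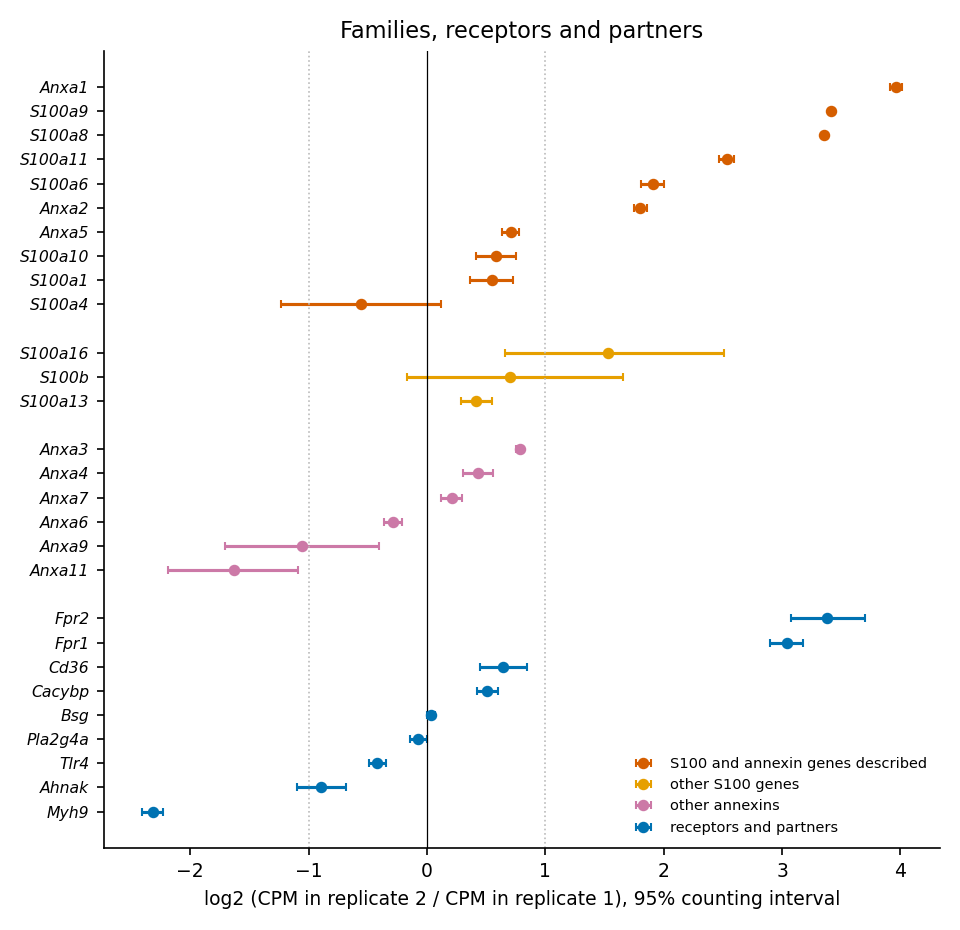
Log2 ratio of CPM in replicate 2 over replicate 1, with 95% exact counting intervals, for the 10 S100 and annexin genes, other S100 genes, other annexins, and receptors and partners that were counted. Dotted lines mark 2-fold. Fpr1 (3.04) and Fpr2 (3.38) lie near S100a8 (3.35) and S100a9 (3.41), while the other annexins lie at or below 0.78.

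Markers of other cells were set beside these values as whole lists. Monocyte markers, whose cells also make S100A8, S100A9 and S100A4, summed to 478 and 517 CPM over 6 genes, with Ly6c2 over 2-fold higher (90.3 and 302 CPM) and 2 genes over 2-fold lower in replicate 2, F13a1 (log2 -1.80, adjusted -1.50) and Fn1 (just past 2-fold, adjusted log2 0.43). Border macrophage markers summed to 484 and 273 CPM over 6 genes, with 2 over 2-fold lower and none over 2-fold higher. For comparison, 25.9% of all counted genes were over 2-fold lower and 5.74% over 2-fold higher. The 5 basophil and mast cell markers had 2 counts in all in replicate 1, where 4 of the 5 were at 0, and 6881 counts in replicate 2. Astrocyte (226 and 177 CPM), oligodendrocyte (98.7 and 108 CPM) and endothelial (23.1 and 16.9 CPM) sums were low in both. Elane and Mpo, enzymes of primary granules made by early neutrophil precursors, were at 22.1 and 86.6 CPM and at 15.2 and 103 CPM. Csf3r, the receptor for granulocyte colony-stimulating factor, was lower in replicate 2 (517 and 354 CPM, log2 -0.55, adjusted -0.07), unlike the other mature neutrophil genes with it. Ptprc, which encodes CD45, was at 418 and 381 CPM, and Itgam, which encodes CD11b, at 289.9 and 131 CPM (log2 -1.15, adjusted -0.22). The part of these cell types in the levels of S100a8, S100a9, Anxa1, S100a11, Anxa2 and S100a6 was not tested.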

How the data were processed

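RNA-seq was analysed from 2 sham libraries, grouped by their titles. Per the paper's methods and the labels, the authors made cDNA with the SMART-Seq HT Kit, built Nextera XT libraries, aligned reads to GRCm38 by HISAT2 and used HTSeq to count reads on Ensembl genes. The deposited tables hold these raw counts, not normalized. Tool versions, annotation release, strand setting and overlap mode are not given in the sources used here. The kit primes at the poly(A) tail and does not mark strand, so reads of antisense partners cannot be told apart.

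Symbols were matched for 53620 of 53801 identifiers, and coordinates are those of the deposited files. The members and lists were chosen with earlier results of these data known. CPM was the count divided by the library total. RPKM used the union of GENCODE M21 exons. Intervals were exact (Poisson for CPM, Clopper-Pearson for ratios) and Wilson for shares of the 10 genes' counts. A minimum of 10 counts in each library defined the counted genes. For the adjustment, the median log2 ratio of genes in the same of 10 bins of GC content and 10 of length was subtracted, or of GC content alone under 20 genes. It was tested on simulated data. Named were the 10 genes, their family, receptor and partner lists, the marker lists, overlapping genes and the 3 genes nearest in log2 CPM. Named by value after their values were seen were Elane, Mpo, Csf3r, Sall1, Ly6c2, F13a1, Fn1, Ptprc, Itgam and S100a2. Promoters and motifs came from a RefSeq table of GRCm38.p6.

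Alternatives were edgeR 4.0.16 TMM and DESeq2 1.42.0 size factors (R 4.3.3), totals without mitochondrially encoded genes, the adjustment, minimum counts of 1 and 50, longest transcripts, and leaving out each library. Other steps used Python 3.11.15, numpy 2.4.6, scipy 1.17.1, pandas 2.3.3 and matplotlib 3.10.9. With 1 group, no test was run.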

Additional observations from a re-analysis of the deposited data

How the results depend on the processing

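No paired analysis was possible because both libraries belong to 1 group. Under every alternative that gives a ratio, the number of the 10 genes over 2-fold higher in replicate 2 stayed at 6, none was over 2-fold lower, and no ratio changed sign. With a minimum of 50 counts, S100a4 (36 and 43 counts) was not among the genes judged. The log2 ratio of the summed pair, 3.38, was 3.61 with TMM, 3.66 with DESeq2 size factors and 3.33 after the GC and length adjustment, and that of the 8 other genes, 2.73, was 2.96, 3.00 and 2.54. Both scalings shift all genes alike, with a median of -0.03 and 0.01 in place of -0.26. The share of genes over 2-fold higher, 5.74%, was 9.28% with DESeq2 size factors (19.0% lower), 9.7% after the adjustment, 10.1% with at least 1 count and 3.85% with at least 50. The share lower, 25.9%, was 12.7% after the adjustment. With the longest transcript in place of all exons, 4 of the 10 genes kept their place in the order per length, with S100a8 above S100a9, Anxa1 above S100a11 and S100a10 above S100a1. Leaving out each library in turn gave 2528 to 26341 CPM for the pair and 515 to 3415 CPM for the 8 other genes, and leaves no ratio between libraries. Depth limits S100a4 and genes under 10 counts, and 2 mice limit every mean.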
